A study of Mus musculus with 16 samples.

Results

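Cells that carried the C-type lectin receptor transcripts Cd209a and Mgl2 were examined in 16 single-cell RNA-seq libraries of inguinal lymph nodes (LNs) from 8-week-old, sex-matched C57Bl/6 mice. Mice received live MC38 cells, a colon carcinoma line of the same mouse strain, or MC38 cells fixed in paraformaldehyde, by subcutaneous injection of 500000 cells at the lower right flank. On day 12 the draining LN (dLN) and the LN of the opposite side (ndLN) were taken, which gave 3 libraries each of live dLN, live ndLN, fixed dLN and fixed ndLN. A further 4 libraries came from naive mice, for which no inoculum was listed. Before capture, the digested LNs were enriched for podoplanin (PDPN), a surface protein of stromal cells, so the hematopoietic cells in these libraries are those that remained after a selection for other cells. The labels do not tie the libraries to single animals, and the p-values below measure the spread between these libraries.

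The cells were chosen by their UMIs (unique molecular identifiers, each standing for 1 captured transcript). A cell with 200 to 6000 genes and at most 30% mitochondrial UMIs was kept, and it was taken as a Cd209a Mgl2 cell when Cd209a and Mgl2 together had at least 2 UMIs. It also had to have fewer than 3 UMIs over the migration-associated genes Fscn1, Ccl22, Cacnb3 and Slco5a1, and none of Ly6c2, Cd3e, Cd79a, Prox1 or Pdgfrb. This gave 1275 of 50386 kept cells (2.53%), between 34 and 138 per library. These values chose the cells and are therefore given without a test. Of the 1696 kept cells with at least 2 receptor UMIs, 134 had too many migration-associated UMIs, 132 had Ly6c2, 109 had Cd3e or Cd79a and 112 had Prox1 or Pdgfrb, and some failed several of these limits.

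Conventional dendritic cells (cDCs) take up antigen and present it on MHC class II to T cells. The type 2 cDCs (cDC2s), which depend on the transcription factor Irf4, include a dermal subset that bears CD301b, the galactose-binding lectin encoded by Mgl2, and that carries antigen from skin to draining LNs. Cd209a encodes a mouse relative of the human lectin DC-SIGN and marks cDC2s and monocyte-derived cells. Macrophages can carry Mgl2 as well.

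The label of dendritic cells was checked against genes that the choice had not used. Summed over all Cd209a Mgl2 cells, the MHC class II invariant chain Cd74 reached 21202 CPM (UMIs of a gene for every 1000000 UMIs of the summed cells). Cd74 stood at 6104 CPM in 4401 migratory dendritic cells (at least 3 UMIs over the 4 migration-associated genes) and at 7375 CPM in 828 C1q macrophages (at least 5 UMIs of C1qa, C1qb and C1qc and under 2 receptor UMIs). H2-Ab1, an MHC class II chain, stood at 9346, 1180 and 3398 CPM in the same order. Both class II genes were thus highest in the Cd209a Mgl2 cells. The growth factor receptor Flt3, a gene of the DC lineage, stood at 165 CPM against 225 and 16.6, and Irf4 at 110 CPM against 32.7 and 8.28. Ccr7, the receptor that guides DCs into LNs, was at 3.54 CPM against 478 in migratory DCs. Both populations had been chosen by the migration-associated genes, in opposite directions, so this gap does not check the label. These levels had Flt3 close to the migratory DCs and far from the macrophages, but C1qa stood at 1284 CPM, and the clusters below show that part of the cells had macrophage transcripts. The cells are therefore called Cd209a Mgl2 cells throughout.

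The 234 cells with exactly 2 receptor UMIs and the 541 cells with 1, otherwise chosen alike, lay just inside and just outside the limit. Inside, Cd74 stood at 13819 CPM and Flt3 at 193 CPM, and outside at 9743 and 129 CPM. C1qa was at 714 CPM inside and 708 outside. Markers of LN sinus macrophages set the sides apart more, since Marco was at 75.3 CPM inside and 808 outside, and Cd209b at 243 inside and 1055 outside.

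Median depth per library ran from 3354.5 to 5234 UMIs per Cd209a Mgl2 cell, and the summed cells of a library held 177961 to 791520 UMIs (library totals 7486725 to 48945961). The cells of live dLNs were deeper than those of live ndLNs, with library medians of 4874 ± 321 (SD, n = 3) and 3860 ± 548 UMIs that did not overlap (exact permutation test, two-sided p = 0.1, the smallest that 3 against 3 libraries allow). Fixed dLNs and ndLNs stood at 4673 ± 131 and 4494 ± 228 UMIs (exact permutation p = 0.3). The mitochondrial share was 5.97% ± 0.134 and 5.45% ± 0.608 in live dLNs and ndLNs, with overlapping libraries. Libraries shared at most 10 cell barcodes, none of them of a Cd209a Mgl2 cell. Among 50386 kept cells a doublet caller (Scrublet) set a threshold that marked 19, too few to have worked, so the 1464 highest-ranked cells were treated as candidate doublets, and these included 20 Cd209a Mgl2 cells (1.57%).

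Cd209a Mgl2 cells made up a smaller share of live dLNs than of live ndLNs. They were 1.66%, 1.67% and 2.02% of kept cells in live dLN libraries A to C, and 2.47%, 3.14% and 3.24% in live ndLN libraries A to C. Every live dLN library lay below every live ndLN library. The means were 1.78% ± 0.204 and 2.95% ± 0.418 (SD, n = 3 each), a ratio of 0.604 (exact permutation p = 0.1, the smallest possible). An edgeR test over all 16 libraries and 5 cell populations took cell numbers relative to the kept cells, so it tests the same share. It gave a log2 change of -0.69 (adjusted p = 0.000131). The cells themselves numbered 85, 81 and 75 in live dLN libraries A to C and 90, 54 and 64 in live ndLNs.

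Fixed inoculum showed no such gap between the LNs. Shares were 3.47%, 3.06% and 3.47% in fixed dLNs and 3.08%, 2.75% and 3.66% in fixed ndLNs, and these overlapped (means 3.33% ± 0.237 and 3.16% ± 0.461, exact permutation p = 0.7). In naive LNs the share was 2.54%, 2.16%, 2.21% and 2.36%. Live dLNs lay below all 4 naive libraries (ratio 0.769) and fixed dLNs above them (ratio 1.44), each with an exact permutation p of 0.0571, the smallest that 3 against 4 libraries allow. By the edgeR test relative to kept cells these changes were -0.41 (adjusted p = 0.00165) and 0.51 (adjusted p = 0.000483) on the log2 scale.

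These shares depend on what else a PDPN-enriched library holds. Among cells of the 4 gated myeloid populations (Cd209a Mgl2 cells, migratory DCs, C1q macrophages and Ly6c2+ classical monocytes), live dLNs stood at 15.5% ± 1.51, a log2 ratio of 0.04 to naive LNs (exact permutation p = 0.743), and of -0.17 to live ndLNs (exact permutation p = 0.2). On the same denominator fixed dLNs stood at 22.4% ± 1.63, a ratio of 1.5 to naive LNs (exact permutation p = 0.0571). Migratory DCs too were a smaller share of kept cells in live dLNs than in ndLNs (edgeR, log2 change -1.07, adjusted p = 2.69e-10). Whether the changes of both populations differed was not tested. A share cannot tell fewer of these cells from more of the others.

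**Figure D1:**
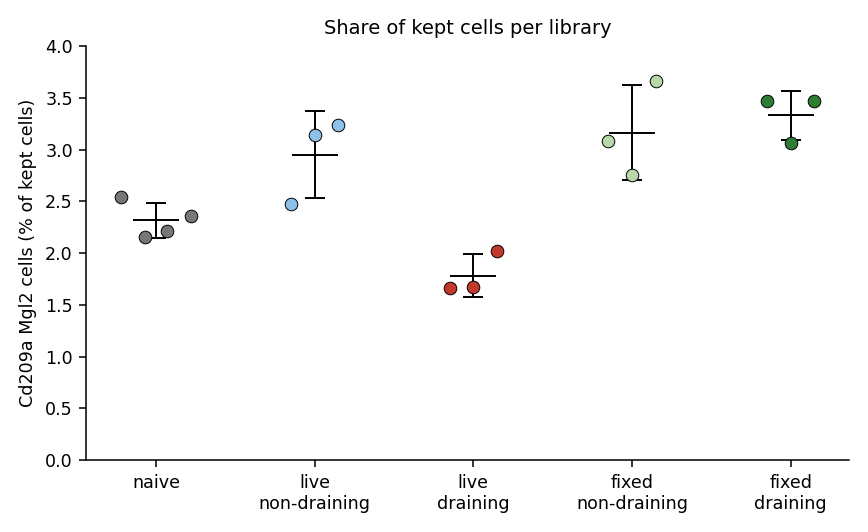
Cd209a Mgl2 cells as a percent of kept cells (vertical axis), 1 point per library in the 5 groups, with the mean and SD in black. The 3 live dLN libraries lie between 1.66% and 2.02%, below every other library, and fixed dLNs lie between 3.06% and 3.47%.

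Either receptor could bring a cell in, and the balance of both varied. Of the 1275 cells, 660 (51.8%) had UMIs of both receptors, 495 (38.8%) of Mgl2 alone and 120 (9.41%) of Cd209a alone. In live dLNs 34.9% had both and 56.8% had Mgl2 alone, whereas in live ndLNs 56.7% had both and 30.8% had Mgl2 alone. The summed level of Cd209a was 310, 628 and 668 CPM in live dLN libraries A to C and 804, 573 and 649 CPM in live ndLNs. These levels overlapped, and they are a description, since both genes chose the cells.

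The Cd209a Mgl2 cells fell into 7 clusters when they were grouped without 747 genes, among them the 11 genes of the choice. The others had an unadjusted p under 0.01 in the edgeR tests below, for live dLNs against ndLNs or for the live minus fixed difference. The clusters were drawn on these cells, so their levels and sizes are given as a description. Cluster 1 (384 cells, 30.1%) had among its leading genes the signal receptor Sirpb1a, the inflammasome sensor Nlrp1b and Itgax, which encodes the integrin CD11c. Its cells had the lowest median depth (3166 UMIs) and the highest median mitochondrial share (8.56%) of the 7 clusters. All 10 genes of a DC lineage list had UMIs in 5% or more of its cells, and Cd209a was detected in 72.9% of them. This limit is a low one, since 10 of 12 reticular fibroblast genes passed it in cluster 1 as well. Summed levels of the lists are therefore given too, and the DC list summed to 2203 CPM in cluster 1.

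Cluster 2 (312 cells, 24.5%) was led by Fn1 (fibronectin), Retnla (the secreted protein RELM-alpha, induced by IL-4 and IL-13), Lpl (lipoprotein lipase) and Ear2, a ribonuclease of myeloid cells. Cluster 3 (271 cells, 21.3%) carried Il4i1, Cd209e, Cd7, Cd8a, Lag3 and Ccr9 among its leading genes. In cluster 3 the transcription factor Tcf4, which drives plasmacytoid DCs, stood at 2262 CPM, with Bcl11a at 1123 CPM and Flt3 at 487 CPM. It held 10 of 10 genes of the DC list and 6 of 10 of the plasmacytoid list by the same limit, which 10 of 12 fibroblast genes passed too. The DC and plasmacytoid lists summed to 3210 and 3276 CPM in cluster 3, against at most 2203 and 1183 CPM in any other cluster. Tcf4 alone gave 2262 of the 3276 CPM. Siglech, a marker of plasmacytoid DCs, went the other way, at 54.6 CPM in cluster 3 and 201.6 CPM in cluster 4.

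Cluster 4 (196 cells, 15.4%) was macrophage-like. It was led by Ccl8, Pf4, Folr2, Cbr2 and Stab1, and 17 of 18 macrophage markers passed the limit of 5% of its cells, against 6 of 10 genes of the DC list. The macrophage list summed to 37149 CPM in cluster 4, against at most 6233 CPM in any other cluster. C1qa stood at 5529 CPM and Apoe at 13631 CPM there. Mgl2 was detected in 99% of its cells and Cd209a in 17.9%, so cluster 4 entered the choice mostly through Mgl2. Here the data went against the label of dendritic cells.

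The remaining clusters were small. Cluster 5 (64 cells, 5.02%) was led by Ly6a and Irf7, cluster 6 (32 cells, 2.51%) by the division genes Ube2c, Prc1 and Top2a, and cluster 7 (16 cells, 1.25%) by Cd207, Xcr1 and Itgae. Cluster 7 was cDC1-like, and Cd209a was detected in none of its cells. Its type 1 cDC list summed to 11539 CPM, against at most 1342 CPM in any other cluster. All 12 of 12 markers of that list passed the limit of 5%. In 16 cells 1 cell is enough to pass it, and 11 of 12 fibroblast genes did so too.

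The markers Cd209d and Ear2, proposed for these cells beside Cd209a and Mgl2, marked different clusters. Cd209d, a lectin gene next in family to Cd209a, stood at 2120 CPM in cluster 3 and 208 CPM in cluster 1, while Ear2 stood at 816 CPM in cluster 2 and 1.3 CPM in cluster 3. Ear2 was found in 34.2% of the cells with a Cd209d UMI and in 38.8% of the others.

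**Figure D2:**
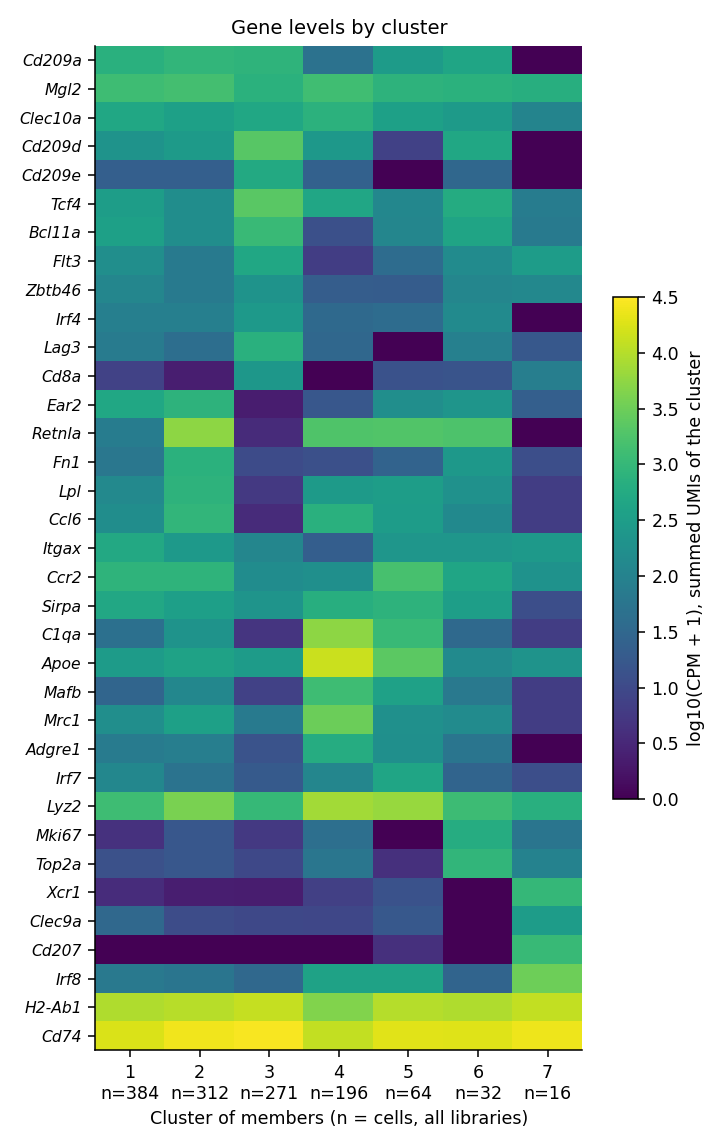
Level of 35 genes (rows) in the 7 clusters of Cd209a Mgl2 cells (columns, with cell numbers), as log10(CPM + 1) of UMIs summed over all libraries. Tcf4, Bcl11a and Cd209d are brightest in cluster 3, Ear2, Retnla and Fn1 in cluster 2, C1qa and Apoe in cluster 4, and Xcr1 and Clec9a in cluster 7.

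The makeup of the live dLN cells differed from that in the other groups. Cluster 3 held 7.06%, 8.64% and 10.7% of the cells of the live dLN libraries, in order of size, and from 17.2% to 38.5% in the other 13 libraries. Cluster 2 held 30.6%, 38.3% and 49.3% in live dLNs and from 13.5% to 26.5% elsewhere. For clusters 2 and 3 the live dLN libraries did not overlap any other group. Cluster 4 held 14.8% to 23.5% in live dLNs and 7.41% to 18.8% in live ndLNs, and these ranges overlapped. Naive LNs had 14.3% to 22.7% in cluster 4.

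**Figure D3:**
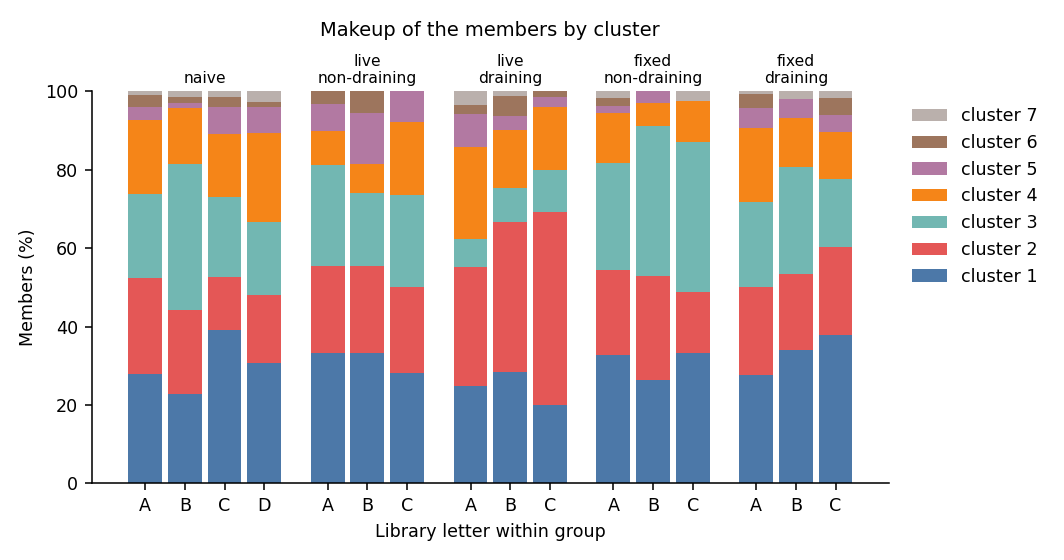
Percent of the Cd209a Mgl2 cells of each library (1 bar per library, by group) that fell in each of the 7 clusters. The band of cluster 3 is thin in the 3 live dLN libraries (7.06% to 10.7%) and the band of cluster 2 is wide (30.6% to 49.3%).

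The shares of cells with chosen transcripts, which the choice had not used, gave a like picture after every cell had been thinned to 2000 UMIs (30 of 241 cells of live dLNs and 41 of 208 of live ndLNs were shallower and left out). A UMI of C1qa, C1qb or C1qc, the chains of complement C1q, was found in 42.3% ± 6.41 of cells in live dLNs and 20.9% ± 8.2 in live ndLNs, without overlap (exact permutation p = 0.1, the smallest possible). The unthinned shares were 45.5% ± 4.5 and 21.8% ± 8.34. In B cells, which should lack C1q, the thinned share pooled over all libraries was 3.97%, which does not give the background of either group. The B cells had a median of 3571 UMIs per cell against 4472 in Cd209a Mgl2 cells. Fixed dLNs stood at 24.5% ± 5.6 and fixed ndLNs at 13.2% ± 7.28, with overlap (exact permutation p = 0.2).

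A UMI of Flt3 or of the cDC transcription factor Zbtb46 was found in 22.2% ± 1.46 of thinned cells in live dLNs and 32.9% ± 8.44 in live ndLNs (exact permutation p = 0.1), and in 39.1% ± 5.54 in naive LNs. The unthinned shares of live dLNs and ndLNs were 39% ± 0.906 and 50.3% ± 6.47. Of thinned B cells pooled over all libraries, 8.39% had such a UMI. In fixed dLNs and ndLNs the thinned share was 38% ± 3.36 and 46.1% ± 5.05, again without overlap (exact permutation p = 0.1), and unthinned it was 56% ± 5.63 and 63.9% ± 8.87, with overlap (exact permutation p = 0.3).

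Cxcl9, a chemokine that draws activated T cells, had a UMI in 8.06% ± 0.667 of thinned cells in live dLNs and 1.59% ± 1.5 in live ndLNs (exact permutation p = 0.1). In B cells pooled over all libraries the share was 3.97%, and a pooled share does not give the background of either group. Unthinned, the shares of live dLNs and ndLNs were 21.5% ± 1.82 and 3.04% ± 2.64, with 9.41% ± 2.87 in naive LNs. Mki67 or Top2a, genes of dividing cells, were found in 10% ± 2.84 and 5.45% ± 1.68 after thinning (exact permutation p = 0.1), and in 12.4% ± 3.13 and 9.86% ± 3.18 before it, where the libraries overlapped (exact permutation p = 0.6). B cells, which divide in LNs, had such a UMI in 33.4%. Ccr7 was found in at most 3.23% of thinned cells in any library, below the 6.92% of B cells, which carry this receptor too. In live ndLNs it was found in 0 of 167 thinned cells, which allows a share of up to 1.8%.

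Gene levels were then compared over UMIs summed per library, for 7892 genes, with edgeR's quasi-likelihood test and Benjamini-Hochberg adjustment over these genes (a call is an adjusted p under 0.05). Live dLNs against live ndLNs gave 316 calls, 4.00% of the genes tested, with 162 higher (2.05%) and 154 lower (1.95%). Fixed dLNs against fixed ndLNs gave 0 calls (0%), with 554 genes at an unadjusted p under 0.05 and 1 call by DESeq2. The live count was 135 without live ndLN library B and 145 without live dLN library A. Fixed ndLN libraries held 34 to 55 of the cells and fixed dLNs 103 to 138, and with the same number of cells in every library the live comparison gave 93 calls and the fixed one 0. A gene counts below as different between the inocula only if the live effect minus the fixed effect was itself called, which held for 38 genes (0.482%), 19 with a positive difference (0.241%) and 19 with a negative one (0.241%). These 38 calls are fragile, since between 2 and 16 of them were called again when live ndLN library B, any 1 live dLN library or any 1 fixed library was left out, and 25 and 20 without live ndLN library A or C. Bulk sums cannot tell fewer cells of one kind from less RNA per cell.

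Of 10 DC lineage genes tested, Flt3, Bcl11a, Dpp4 and Kmo fell in live dLNs, 6 were not called and none rose, with a median log2 change of -0.66 (0.00 over all genes tested). Flt3, the receptor for the cytokine that sustains DCs, stood at 246, 249 and 180 CPM in live ndLN libraries A to C and 59.8, 85.2 and 81.2 CPM in live dLNs. All live dLN libraries lay below all live ndLN libraries and below the naive ones (144 to 225 CPM). The fall was -1.57 ± 0.21 (log2, SE; adjusted p = 0.00014), and the live effect differed from the fixed one by -1.26 ± 0.29 (adjusted p = 0.0495). Bcl11a, a transcription factor of lymphoid and plasmacytoid lineages, stood at 485, 644 and 323 CPM in live ndLNs and 127, 185 and 222 CPM in live dLNs. It fell by 1.44 on the log2 scale (adjusted p = 0.00078), again without overlap.

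Among 13 cDC2 genes tested, Irf4 and the lectin Clec10a fell, Cd24a and Clec4a2 rose, and 9 were not called (median -0.15). Irf4 stood at 113, 154 and 146 CPM in live ndLNs and 68.6, 59.2 and 51.5 CPM in live dLNs (log2 change -1.17 ± 0.24, adjusted p = 0.00546). Clec10a, the close relative of Mgl2, stood at 529, 546 and 652 CPM in live ndLNs and 354, 213 and 464 CPM in live dLNs (-0.75 ± 0.19, adjusted p = 0.0255). Neither pair of groups overlapped. The difference from the fixed effect was not called for either gene (adjusted p = 0.376 and 0.26). Cd24a, a glycoprotein of DCs and B cells, went the other way, with 19.9, 27.7 and 47.8 CPM in live ndLNs and 128, 137 and 174 CPM in live dLNs. Its rise was 2.21 ± 0.28 (adjusted p = 0.00014) and differed from the fixed effect by 2.61 ± 0.53 (adjusted p = 0.0402).

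Of the 10 leading genes of cluster 3, Adam11, Cd209e, Cd8a and Lag3 fell in live dLNs, and the other 6 were not called. Tcf4, also high in that cluster, stood at 664, 759 and 790 CPM in live ndLNs, 297, 333 and 458 CPM in live dLNs and 698 to 883 CPM in naive LNs (-1.02 ± 0.17, adjusted p = 0.00067). Of 6 plasmacytoid DC genes tested, Tcf4, Runx2 and Spib fell and none rose. Cd8a, the T cell coreceptor chain that some DCs also carry, stood at 115, 27.7 and 22.5 CPM in live ndLNs and 3.52, 16.7 and 1.98 CPM in live dLNs (-2.99 ± 0.64, adjusted p = 0.00753). Cd209e, another lectin of the Cd209 family, stood at 170, 51.4 and 89.9 CPM in live ndLNs and 10.6, 24.1 and 47.6 CPM in live dLNs (-2.03 ± 0.38, adjusted p = 0.0023). These groups did not overlap for any of the 3 genes.

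Cd209d was lower in live dLNs than in naive LNs (-1.17 ± 0.27, adjusted p = 0.0185), and its libraries overlapped between live dLNs and ndLNs (-0.78 ± 0.29, adjusted p = 0.137). Ear2 stood at 301, 657 and 670 CPM in live dLNs and 195 to 376 CPM in live ndLNs, with overlap (adjusted p = 0.134). Cluster 3 held 48 cells in live ndLNs and 21 in live dLNs, so its pooled levels rest on few cells and have no measure of spread. Its pooled levels of Tcf4 (2166 CPM in live ndLNs and 1747 in live dLNs) and Bcl11a (996 and 936) were closer than the sums over all cells. Whether the share of cluster 3 accounts for the falls over all cells was not tested. Flt3 was lower within cluster 3 too, at 617 CPM in live ndLNs and 346 in live dLNs, as was Irf4, at 325 and 94.2 CPM. In cluster 1, Flt3 stood at 171 and 162 CPM. Clec10a was lower within cluster 2 (627 and 136 CPM) and higher within cluster 3 (383 and 697 CPM).

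**Figure D4:**
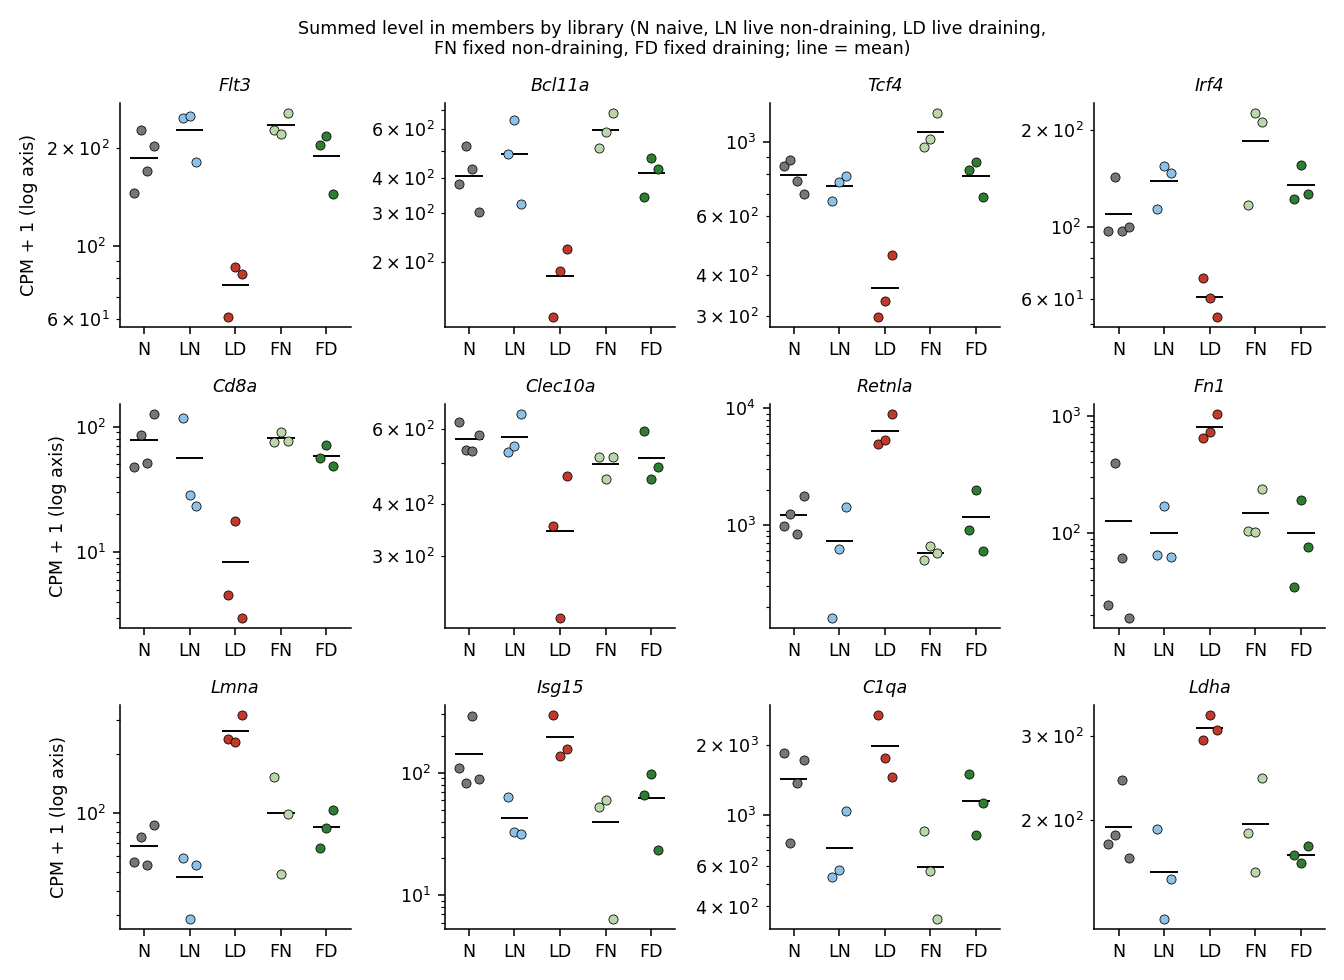
Summed level of 12 genes in the Cd209a Mgl2 cells of each library (CPM + 1, logarithmic axis), 1 point per library in the 5 groups, with the mean as a line. Flt3, Bcl11a, Tcf4 and Irf4 are lowest in live dLNs, and Retnla, Fn1 and Lmna highest, for example Flt3 at 59.8 to 85.2 CPM in live dLNs against 180 to 249 CPM in live ndLNs.

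Of 14 genes of the response to IL-4 and IL-13 tested, Retnla and Cish rose while Irf4 and Cd209e fell (median 0.53), and of 14 lipid-handling genes Lpl alone was called (median 0.37). Retnla stood at 159, 621 and 1419 CPM in live ndLN libraries A to C and 4976, 5391 and 8954 CPM in live dLNs, and the naive libraries lay between 841 and 1785 CPM. Every live dLN library exceeded every library of the other groups. The rise was 3.14 ± 0.47 (adjusted p = 0.00037), and the difference from the fixed effect was 2.13 ± 0.65 (adjusted p = 0.178, not called). Within cluster 2 (46 cells in live ndLNs and 94 in live dLNs) the pooled level was 2304 CPM in live ndLNs and 11793 in live dLNs. Within cluster 4 (24 and 44 cells) it was 158 and 1366 CPM. Kept cells outside the Cd209a Mgl2 cells, migratory DCs, C1q macrophages and monocytes stood at 29.5 and 150 CPM.

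Fn1 stood at 64.2, 170 and 61.8 CPM in live ndLNs and 644, 729 and 1036 CPM in live dLNs (3.12 ± 0.68, adjusted p = 0.00873). Naive library B reached 397 CPM, while the other 3 naive libraries lay at 17.9 to 60.3 CPM. Within cluster 2 Fn1 was at 270 and 1594 CPM in live ndLNs and dLNs. Lpl stood at 186, 229 and 284 CPM in live ndLNs and 818, 513 and 890 CPM in live dLNs, but also at 732, 178 and 325 CPM in fixed ndLNs. Its rise was 1.67 ± 0.41 (adjusted p = 0.0195) and its difference from the fixed effect 2.59 ± 0.59 (adjusted p = 0.0442). Among cells with both receptors the difference for Lpl was -0.44, so its direction depended on the cells taken.

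Of 15 chemokine genes tested, 3 rose and 1 fell. Ccl6, a chemokine of myeloid cells, stood at 275, 249 and 365 CPM in live ndLNs and 871, 800 and 1344 CPM in live dLNs (1.75 ± 0.24, adjusted p = 0.00017). Ccl9 rose by 1.18 ± 0.24 (adjusted p = 0.0048). Cxcl2, a neutrophil attractant, had 3 UMIs in all in live ndLNs and 90 in live dLNs, a ratio of 19.4 (95% counting interval 6.43 to 95.9). Ccl5 fell, from 423, 142 and 36.5 CPM in live ndLNs to 33.4, 7.41 and 21.8 CPM in live dLNs (-3.31 ± 0.68, adjusted p = 0.00539). Cxcr4, the receptor of Cxcl12, fell in live dLNs (log2 change -1.31), with 62, 126 and 87.1 CPM in live ndLNs and 35.2, 44.4 and 25.8 CPM in live dLNs. For Cxcr4 the live effect differed from the fixed one by -2.72 ± 0.63 (adjusted p = 0.0463). This difference includes the change in fixed LNs, which was not called.

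C1q chains rose, 3 of 16 macrophage genes tested. C1qa stood at 536, 573 and 1037 CPM in live ndLNs and 2701, 1761 and 1459 CPM in live dLNs (1.46 ± 0.31, adjusted p = 0.00733), while naive LNs had 754 to 1848 CPM. Live dLNs did not overlap live ndLNs and did overlap naive LNs (live dLNs against naive, adjusted p = 0.473). The whole macrophage list summed to 8654 to 16278 CPM in live dLNs, 3321 to 9723 in live ndLNs and 7113 to 13671 in naive LNs. C1qa was at 420 and 87.8 CPM within cluster 2 of live dLNs and ndLNs, and at 6936 and 4381 within cluster 4. Among cells with no C1q UMI there were 123 calls in place of 316, with 95 of the 316 genes called again and all 275 of them that could be tested there of the same sign.

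A part of the interferon-stimulated genes rose in live dLNs against live ndLNs, and none was called against naive LNs. Of 31 genes of the type I interferon response tested, 9 rose, Ifit1, Ifit2, Ifit3, Isg15, Mx1, Oasl2, Rtp4, Xaf1 and Zbp1, and none fell (median log2 change 0.92). Against naive LNs, 0 of 31 were called (median 0.24). Isg15, a ubiquitin-like protein made on interferon signalling, stood at 62, 31.6 and 30.9 CPM in live ndLNs, 296, 137 and 155 CPM in live dLNs and 82.3 to 292 CPM in naive LNs. The rise over live ndLNs was 2.16 ± 0.50 (adjusted p = 0.0132). Mx1, an antiviral GTPase, stood at 26.6, 11.9 and 33.7 CPM in live ndLNs and 91.5, 37 and 89.2 CPM in live dLNs (1.51 ± 0.34, adjusted p = 0.0118). The groups overlapped for neither gene, and the difference from the fixed effect was called for none of the 31 (median 1.04).

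Within cluster 1, which had 66 cells in live ndLNs and 59 in live dLNs, Isg15 stood at 16.3 CPM (4 UMIs) and 281 CPM and Ifit3 at 4.07 CPM (1 UMI) and 214 CPM. Ifi27l2a, an interferon-induced mitochondrial protein outside this list, stood at 492, 625 and 447 CPM in live ndLNs and 1627, 1724 and 1621 CPM in live dLNs, without overlap with any other group. It rose by 1.68 ± 0.23 (adjusted p = 0.00014), by 0.75 ± 0.20 over naive LNs (adjusted p = 0.0444), and its live effect exceeded the fixed one by 1.5 ± 0.33 (adjusted p = 0.0402). Of 17 genes of an interferon-gamma list tested, none was called (median 0.48).

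Promoters are printed for Retnla and for the interferon genes that rose in live dLNs and held the motif described below. They were thus picked by the motif as well as by the rise. The sequences are from RefSeq on GRCm38.p6, on the gene's strand, from 160 bases before to 11 bases before the start site. Capitals mark, on either strand, GAAA followed after 2 bases of any kind by a second GAAA (the core of the interferon-stimulated response element, bound by ISGF3) in the first 3 and TTC followed after 4 bases of any kind by GAA (a STAT motif) in Retnla. Isg15 lies at chr4:156200829-156200978 on the minus strand, Ifit1 at chr19:34640729-34640878, Ifit3 at chr19:34583369-34583518 and Retnla at chr16:48842449-48842598 on the plus strand.
Isg15: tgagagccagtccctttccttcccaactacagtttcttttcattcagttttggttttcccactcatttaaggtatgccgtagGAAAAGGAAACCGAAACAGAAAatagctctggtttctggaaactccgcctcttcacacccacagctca
Ifit1: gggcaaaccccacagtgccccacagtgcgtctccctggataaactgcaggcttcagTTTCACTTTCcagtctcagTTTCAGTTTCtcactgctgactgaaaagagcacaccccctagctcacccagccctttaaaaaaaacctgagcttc
Ifit3: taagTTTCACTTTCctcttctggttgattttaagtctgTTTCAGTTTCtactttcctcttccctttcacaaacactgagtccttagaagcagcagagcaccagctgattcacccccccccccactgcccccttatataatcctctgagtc
Retnla: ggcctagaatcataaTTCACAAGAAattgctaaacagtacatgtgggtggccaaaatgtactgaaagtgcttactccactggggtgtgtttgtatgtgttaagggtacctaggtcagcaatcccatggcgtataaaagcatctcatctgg
Isg15 held 3 overlapping matches, Ifit1 and Ifit3 held 2 each, and Retnla held 1. The first motif was found in 3.44% of 32851 promoter windows of 300 bases and the STAT motif in 6.95%. Of the interferon genes with a window, 3 of 6 that rose and 11 of 17 that were not called held the first motif. Ifit2, Oasl2 and Xaf1 rose and held none. Among genes of the IL-4 and IL-13 response the STAT motif was held by 1 of 2 that rose, 1 of 2 that fell (Cd209e) and 2 of 7 not called. A STAT motif with 3 bases between was also sought, with 2 matches in Cish and 0 in Retnla. Matches of letters do not show binding, and the interferon genes that rose did not hold the first motif more often by these counts.

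Of the lists counted, genes of the cytoskeleton and of cell motility had the most rises. Of 28 tested, 11 rose and none fell (median 0.45), and for 7 of them, Capg, Vim, Anxa1, Anxa2, S100a10, Lmna and Crip1, the live effect also exceeded the fixed effect. Lmna, which encodes the nuclear lamins A and C, stood at 57.6, 27.7 and 53.4 CPM in live ndLNs, 239, 231 and 317 CPM in live dLNs, 152, 47.5 and 97.4 CPM in fixed ndLNs and 65.4, 83.1 and 102 CPM in fixed dLNs. No other library reached the live dLN level. Its rise was 2.43 ± 0.28 (adjusted p = 3.7e-05), and its difference from the fixed effect of 2.79 ± 0.41 had the smallest adjusted p of all genes named here (0.00376).

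Capg, an actin-capping protein, stood at 122, 63.3 and 129 CPM in live ndLNs and 359, 318 and 333 CPM in live dLNs (1.64 ± 0.31, adjusted p = 0.00314). Its difference from the fixed effect was 2.01 ± 0.45 (adjusted p = 0.0402). Anxa2, a membrane-binding annexin, stood at 370, 150 and 222 CPM in live ndLNs and 508, 531 and 759 CPM in live dLNs (1.23 ± 0.22, adjusted p = 0.00169), and S100a10, its partner protein, rose by 1.26 ± 0.24 (adjusted p = 0.00301). Vim, the intermediate filament vimentin, stood at 1043, 577 and 879 CPM in live ndLNs and 1541, 1316 and 1958 CPM in live dLNs (0.94 ± 0.18, adjusted p = 0.00324). None of these overlapped between the live groups. In cluster 2 the pooled level of Lmna was 74.8 CPM in live ndLNs and 297 in live dLNs, and in cluster 1 it was 52.9 and 57.2.

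Glycolytic genes rose, 6 of 21 tested, namely Pfkp, Aldoa, Tpi1, Gapdh, Ldha and Slc16a3, while Pfkfb3 fell (median 0.49). Ldha, lactate dehydrogenase A, stood at 190, 123 and 149 CPM in live ndLNs and 294, 331 and 307 CPM in live dLNs (0.98 ± 0.18, adjusted p = 0.00209), and it was the 1 gene of the group whose live effect differed from the fixed one (1.20 ± 0.27, adjusted p = 0.0402). Aldoa, an aldolase, stood at 153, 146 and 180 CPM in live ndLNs and 341, 267 and 297 CPM in live dLNs (0.91 ± 0.16, adjusted p = 0.00137). Slc2a3, a glucose transporter outside the enzymes, fell, from 64.2, 59.3 and 75.9 CPM in live ndLNs to 12.3, 22.2 and 19.8 CPM in live dLNs (-1.88 ± 0.27, adjusted p = 0.00028), and its difference from the fixed effect was -1.82 ± 0.36 (adjusted p = 0.0402). Of 35 genes of the respiratory chain tested, Cox5a alone was called.

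Lysosomal genes gave 4 rises of 23 tested, in Ctsz (cathepsin Z), Grn (progranulin), Hexa (a hexosaminidase) and Npc2 (a cholesterol carrier), with none lower. Npc2 stood at 607, 581 and 587 CPM in live ndLNs and 950, 911 and 785 CPM in live dLNs (0.58 ± 0.13, adjusted p = 0.0132). MHC class II presentation gave 1 call of 14, Ctsz again, and MHC class I presentation 0 of 19. Cd74 had a change of -0.16 ± 0.15 (adjusted p = 0.619) and H2-Ab1 of -0.18 ± 0.13 (adjusted p = 0.506). No call was made among 9 type 1 cDC genes, 17 pattern recognition receptors, 14 heat shock genes or 15 genes of ribosome biogenesis tested.

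Some immediate early and inflammatory feedback genes were lower in live dLNs. Il1b, the cytokine interleukin-1 beta, stood at 445, 391 and 368 CPM in live ndLNs and 128, 261 and 236 CPM in live dLNs (-0.95 ± 0.23, adjusted p = 0.0178), while fixed dLNs had 464, 482 and 354 CPM and fixed ndLNs 242, 291 and 346. The difference of the live from the fixed effect was -1.54 ± 0.33 (adjusted p = 0.0402). Nfkbia, the inhibitor of NF-kB, stood at 624, 558 and 601 CPM in live ndLNs, 310, 337 and 363 CPM in live dLNs, 416, 386 and 390 CPM in fixed ndLNs and 582, 505 and 483 CPM in fixed dLNs. It thus lay lower in the dLN with live inoculum and higher in the dLN with fixed inoculum, without overlap in either pair. The change with fixed inoculum alone was not called, and the share of all genes without overlap is not given here. The difference of the live from the fixed effect was -1.22 ± 0.21 (adjusted p = 0.0145).

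Of 17 NF-kB and feedback genes tested Nfkbia and Nfkbiz fell, and of 25 immediate early genes Dusp2, Nr4a3 and Btg2 fell, with no rise in either list. Dusp2, a phosphatase that limits MAP kinases, stood at 93, 71.2 and 39.3 CPM in live ndLNs and 29.9, 22.2 and 5.95 CPM in live dLNs (-1.79). Its difference from the fixed effect was -3.03 ± 0.65 (adjusted p = 0.0402), which includes an uncalled change in fixed LNs. Nr4a1, a nuclear receptor induced within minutes of a stimulus, was not called in live dLNs against ndLNs (adjusted p = 0.0913), and the difference of the live and fixed effects was called (-1.63 ± 0.31, adjusted p = 0.0402). Havcr2, which encodes the checkpoint receptor TIM-3, stood at 79.7, 119 and 70.2 CPM in live ndLNs and 36.9, 29.6 and 11.9 CPM in live dLNs (-1.70 ± 0.28, adjusted p = 0.00088), with a difference from the fixed effect of -1.68 ± 0.39 (adjusted p = 0.0462). Pmaip1, a BH3-only protein of cell death, fell by 1.69 ± 0.27 (adjusted p = 0.00067).

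**Figure D5:**
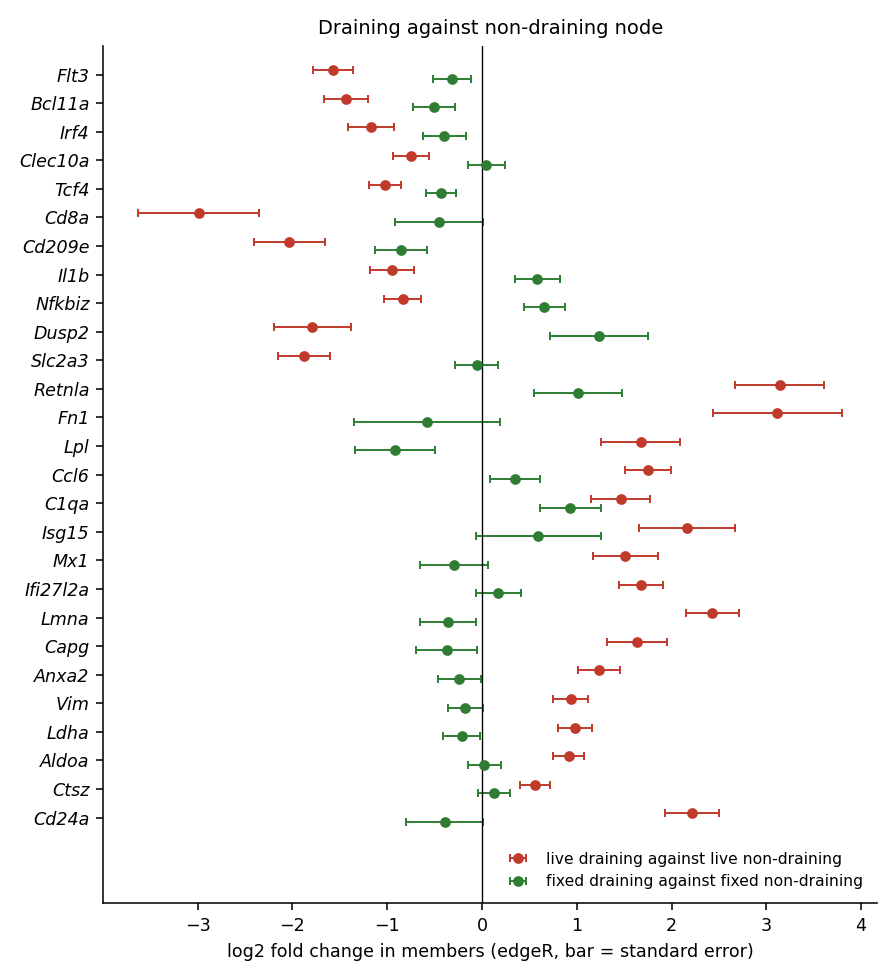
Log2 fold change of dLNs against ndLNs in Cd209a Mgl2 cells for 27 named genes (rows), with live inoculum in red and fixed inoculum in green, and the standard error as a bar. Il1b, Nfkbiz and Dusp2 lie left of 0 with live and right of 0 with fixed inoculum (Il1b -0.95 and 0.58), and Lmna lies at 2.43 and -0.36. No change with fixed inoculum was called.

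Transcripts of other cell types moved in the same comparison. Of 10 fibroblast genes tested, Col1a1, Col1a2, Col3a1 and Sparc, structural proteins of the matrix, were called higher, and the list summed to 549 to 1045 CPM in live dLNs and 220 to 612 in live ndLNs. Col1a1 stood at 4.43, 3.95 and 5.62 CPM in live ndLNs and 42.2, 29.6 and 47.6 CPM in live dLNs (3.00 ± 0.55, adjusted p = 0.00209), and in the kept cells outside the named populations at 395 and 1314 CPM. Ccl20, a chemokine counted among lymphatic endothelial genes, had 1 UMI in live ndLNs and 74 in live dLNs, a ratio of 47.9 (95% counting interval 8.33 to 1.92e+03), and stood at 61.3 and 854 CPM in those other cells. Plasma cell genes summed to 445 to 932 and 248 to 419 CPM, with Igkc, an antibody light chain, called higher. In those other cells Igkc went the other way, from 9758 CPM in live ndLNs to 6234 in live dLNs. The part of these transcripts in the results above was not tested.

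T cell genes summed to 88.2 to 116 CPM in live dLNs and 173 to 295 in live ndLNs, and Cd8a was the 1 of 4 tested that fell. Pecam1, an adhesion molecule of endothelium and leukocytes, was the 1 of 4 blood endothelial genes that fell (-1.75 ± 0.37, adjusted p = 0.00684). Pdpn, the target of the enrichment, had a UMI in 0% to 6.67% of the Cd209a Mgl2 cells of a library, in 3 of 85, 4 of 81 and 5 of 75 cells in live dLNs and in none of the live ndLN cells.

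Naive LNs gave a second reference for live dLNs, with 186 calls (2.36%), 103 higher (1.31%) and 83 lower (1.05%). This comparison shares the live dLN libraries with the one above. The DC genes Zbtb46, Flt3, Bcl11a and Kmo were lower than in naive LNs, Retnla, Fn1, Lpl, Ccl6 and Ccl9 were higher, and 9 of 28 motility genes were higher, among them Lmna (1.97 ± 0.22, adjusted p = 1.7e-05). Flt3 differed by -1.29 ± 0.20 (adjusted p = 0.00047) and Retnla by 2.41 ± 0.41 (adjusted p = 0.0012). Glycolytic genes gave 7 of 21 higher. None of the 3 C1q chains was called against naive LNs. Marco and Timd4, receptors of LN macrophages, were lower (-2.87 ± 0.59 and -2.95 ± 0.58). The count was 111 without naive library A and 106 without any 1 of the live dLN libraries.

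Fixed dLNs against naive LNs gave 8 calls (0.101%). Marco and Timd4 were again lower (-3.48 ± 0.61 and -2.86 ± 0.55, adjusted p = 0.0149 and 0.0327). Marco stood at 292, 283, 55.4 and 19.9 CPM in naive libraries A to D and 11.8, 10.6 and 22.3 CPM in fixed dLNs, so libraries A and B set the naive mean. Nr4a1 was higher, with 160, 132, 120 and 133 CPM in naive LNs and 305, 265 and 217 CPM in fixed dLNs (0.93 ± 0.19, adjusted p = 0.0405). The others were Arl5c, Erdr1, Ppp1r10 and mt-Rnr2, which were higher, and Gm8696, which was lower. Without naive library A 1 gene was called, and 0 of the 8 were called again. Refits called 5 genes without naive B (3 of the 8) and 3 without naive C (3 of the 8). Without fixed dLN library B 3 genes were called (2 of the 8).

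Last, the live effect was compared with that in the cells most like these, by a test of the difference with the library as a term. Against migratory DCs the effect differed for 505 of 9979 genes (5.06%). Mx1 rose in Cd209a Mgl2 cells (1.51) and fell in migratory DCs (-1.88), a difference of 3.44 ± 0.33 (adjusted p = 9.2e-07). Spib, a transcription factor of B cells and plasmacytoid DCs, went the other way (-1.64 and 1.35, difference -3.02 ± 0.35, adjusted p = 1.9e-05). Npc2 rose in the one and fell in the other (0.58 and -0.47, difference 1.06 ± 0.17, adjusted p = 0.00067). Lmna rose in both and more in Cd209a Mgl2 cells (difference 1.52 ± 0.32, adjusted p = 0.00652), and Cd24a rose more in the Cd209a Mgl2 cells (difference 2.50 ± 0.32, adjusted p = 5.2e-05, change in migratory DCs -0.24, adjusted p = 0.409). For Flt3 and Irf4, which fell in both, the difference was not called (-0.18 ± 0.26 and 0.05 ± 0.35). Nor was it called for several genes that rose in both. In Cd209a Mgl2 cells and migratory DCs, Isg15 changed by 2.16 and 2.14, Ifit3 by 2.34 and 2.35, and C1qa by 1.46 and 2.09. Retnla changed by 3.14 and 3.71, Fn1 by 3.12 and 4.04, and Ldha by 0.98 and 1.68. The fall of Mx1 in migratory DCs was thus not shared by Isg15 and Ifit3. The count of 505 became 181 and 251 without live ndLN library A or C, and 263, 231 and 308 without live dLN library A, B or C. The 5 genes named with a called difference kept it with each of the 6 live libraries left out in turn.

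Against C1q macrophages the live effect differed for 79 of 7694 genes (1.03%), but this count ran from 3 without live ndLN library A to 201 without live ndLN library C, with 18 without ndLN B and 18, 44 and 21 without live dLN A, B and C. Cd209d stood out, with a change of -0.78 in Cd209a Mgl2 cells and -4.10 in C1q macrophages (difference 3.15 ± 0.50, adjusted p = 0.00191), and it kept this call with each of the 6 live libraries left out in turn. Grn rose in the Cd209a Mgl2 cells (0.75) with a change of -0.52 in macrophages (difference 1.29 ± 0.27, adjusted p = 0.0159), a call that held in 2 of these 6 repeats. Retnla changed by 3.14 in the Cd209a Mgl2 cells and by 3.00 in macrophages, and this difference was not called (0.29 ± 1.06).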

How the data were processed

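Single-cell 3′ RNA-seq of PDPN-enriched inguinal LN cells was made by the authors with 10x Genomics v3 chemistry, aligned to mm10 and counted with Cell Ranger 3.0.1 per the labels and the methods. The files used are the UMI counts per gene and cell that the authors deposited, not normalized. Cells, libraries and thresholds were as given above. The members and the gene lists were chosen with earlier results of these data known. UMIs of the members were summed per library, the 11 genes of the choice were removed, and 7892 genes that passed filterByExpr were tested in 1 fit over 16 libraries with edgeR 4.0.16 (TMM, quasi-likelihood, R 4.3.3), with Benjamini-Hochberg adjusted p-values. The script was tested on simulated data. Shares were compared by exact two-sided permutation tests over libraries (scipy 1.17.1). Clusters came from scanpy 1.11.5 with 2000 variable genes, 20 components, 15 neighbours and resolution 0.5. Named genes were the 10 largest rises and 10 largest falls called without overlap between the groups at a mean log2 CPM of at least 5, the like for the difference, and up to 4 genes of each list by p. Isg15, Ifit3, Vim, Crip1, the genes of clusters, the genes called in fixed dLNs against naive LNs, and genes named where a count of a list is spelled out fall outside this rule and were chosen after their values were seen. Intervals and limits on 0 counts (3 counts) cover counting error only. Alternatives were DESeq2 1.42.0, no filter on low counts, other choices of cells, each library left out, and libraries blocked by letter. Some genes that were tested are not reported here.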

Additional observations from a re-analysis of the deposited data

Results flagged for a closer look

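In naive LNs, 1 of 4 libraries stood far from the other 3 for 4 of the 24 gene and group pairs examined, where chance flags about 1 in 20. The highest naive level was 397 CPM for Fn1, 552 CPM for Ear2, 292 CPM for Isg15 and 142 CPM for Irf4. Naive library B was the high one for Fn1, Ear2 and Irf4, and naive library C for Isg15.

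The effect of live inoculum differed from that of fixed inoculum for 38 genes, by an interaction term in the edgeR fit. The live minus fixed difference (log2) was positive for Cish (5.55), Slfn1 (2.96), Lmna (2.79), Cd24a (2.61), Lpl (2.59), Capg (2.01), Dok2 (1.84), Ncf4 (1.81), Anxa1 (1.69), S100a10 (1.53), Ifi27l2a (1.5), Anxa2 (1.47), Ldha (1.20), Crip1 (1.16) and Vim (1.11). Cish, an inhibitor of cytokine signalling, had 3 UMIs in live ndLNs and 41 in live dLNs (ratio 8.84, 95% counting interval 2.82 to 44.6), so its fitted value is not a measure of size. The difference was negative for Dusp2 (-3.03), Cxcr4 (-2.72), Tubgcp5 (-2.70), Arap2 (-2.47), Mbd6 (-1.96), Pmaip1 (-1.89), Slc2a3 (-1.82), Havcr2 (-1.68), Snx18 (-1.64), Nr4a1 (-1.63), Il1b (-1.54), Nfkbiz (-1.49), Flt3 (-1.26) and Nfkbia (-1.22).

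The live effect differed between Cd209a Mgl2 cells and migratory DCs for 505 genes, with differences (log2) of 3.44 for Mx1, -3.02 for Spib, -3.24 for Ptprf, 2.50 for Cd24a, 1.54 for S100a10, 1.52 for Lmna, 1.24 for Anxa2, 1.24 for Ahnak and 1.06 for Npc2. It differed from that in C1q macrophages for 79 genes, by 4.10 for Fcna, 3.15 for Cd209d, 1.89 for Clec4n and 1.29 for Grn.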

How the results depend on the processing

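Of 91 named results for live dLNs against ndLNs, 91 kept their direction and 13 their call under every alternative that tested them (Flt3, Bcl11a, Cadm3, Ifi27l2a, Lmna, Vim, Ahnak, Aldoa, Tppp3, Col1a1, Col3a1, Ccl20 and Dok2). Of 29 for the live minus fixed difference, 28 kept their direction and 0 their call, and the difference of Lpl became -0.44 among cells with both receptors. In the order live dLNs against ndLNs, fixed dLNs against ndLNs, their difference, live dLNs against naive and fixed dLNs against naive, the counts were 316, 0, 38, 186 and 8. Without a filter on low counts they were 501, 82, 127, 332 and 100, with 288 of the 316 genes called again. Among cells with no C1q UMI they were 123, 5, 19, 95 and 15. Among cells with both receptors the live comparison gave 48, the difference 0, live against naive 25 and fixed against naive 2. With at least 4 receptor UMIs these were 147, 1, 68 and 0, with at most 10% mitochondrial UMIs 202, 2, 116 and 0, with the same number of cells per library 93, 0, 1 and 0, and among cells with a UMI of Flt3 or Zbtb46, an alternative added after seeing the data, 77, 1, 46 and 1. Alternatives with fewer cells also test fewer genes. Fits with only the libraries of the groups compared gave 206, 7 and 18 calls for live, fixed and fixed against naive. DESeq2 gave 243 for live, 1 for fixed and 120 for live against naive. With 1 library left out in turn the counts ran from 135 to 453, 0 to 1, 2 to 45, 106 to 152 and 1 to 10 in the first order, from 181 to 644 for the difference from migratory DCs and from 3 to 201 for that from C1q macrophages.

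Libraries of 1 letter did not deviate together in these data (correlations of dLN and ndLN deviations over 5494 genes of -0.117, 0.0763 and -0.155 for live and 0.108, -0.00169 and 0.0106 for fixed A to C). The labels do not say whether 1 letter is 1 animal, and this remains unknown, so the libraries were not paired. With a replicate block by letter within inoculum, the live, fixed and difference counts were 222, 2 and 15.

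The log2 ratio of shares of kept cells in fixed dLNs against ndLNs turned to -0.12 among cells with no C1q UMI and ran from -0.02 to 0.19 with 1 library left out in turn, and that of live dLNs against naive to 0.04 among the 4 gated myeloid populations. The log2 ratio of mitochondrial shares in fixed LNs ran from -0.24 to 0.04 with 1 library left out in turn. Some small differences in the percent of cells with a UMI changed sign, each within the libraries' overlap. Without thinning, Ccr7 in fixed LNs became 0.534, Mki67 or Top2a in fixed LNs -0.409, and Cd207 or Epcam -1.44 in live and 0.581 in fixed LNs. With 1 library left out in turn, Ccr7 in fixed LNs ran from -1.24 to 0.375, Cxcl9 in fixed LNs from -3.98 to 0.926, and Cd207 or Epcam from -0.71 to 1.56 in live and from -3.27 to 0.897 in fixed LNs. The cause of these shifts was not tested.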
